A study of Mus musculus with 6 samples.

Results

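The cytokines of the CNTF family and the receptor chains that work with gp130 were followed in motor neurons of the embryonic mouse. The set was defined as 8 genes, namely the receptor chains Il6st, Lifr, Cntfr and Osmr and the cytokines Clcf1, Ctf1, Lif and Cntf. A gene was represented by a row of the array table that carried its symbol alone, and 7 of the 8 genes had such a row, 1 row each, among 14860 genes and 23332 rows in all. The row that holds Cntf also carries the symbols Zfp91 and Gm44505, so no value is given for Cntf. The measured set thus comprised 4 receptor chains and 3 cytokines.

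Gene expression was measured with 1 array per sample in 3 medial and 3 lateral samples of motor neurons from the lumbar spinal cord at embryonic day 12. All 6 samples came from mice carrying HB9::GFP (line mHB9-Gfp1b), a transgene that marks motor neurons with green fluorescent protein, and no sample received a treatment. The columns were separated by dissection and the fluorescent cells were then collected by flow sorting, so the identity of a sample rests on the dissection and on the transgene. Medial motor neurons innervate the muscles along the spine, and lateral motor neurons innervate the limb.

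The receptors of this family are built from shared parts. The protein gp130, encoded by Il6st, is the signalling chain common to the whole family, and it pairs with the chain encoded by Lifr to receive leukemia inhibitory factor (Lif) and cardiotrophin 1 (Ctf1). Ciliary neurotrophic factor (Cntf) and cardiotrophin-like cytokine factor 1 (Clcf1) need, in addition, the chain encoded by Cntfr, which is tethered to the membrane and binds the ligand. The chain encoded by Osmr pairs with gp130 to receive oncostatin M. Bound receptors activate Janus kinases (JAKs), which phosphorylate the transcription factor STAT3, and suppressor of cytokine signalling (SOCS) proteins limit the response. This pathway is known for supporting the survival of embryonic motor neurons, and mice without Cntfr, Lifr or Il6st have fewer of them before or at birth.

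The deposited values lie on a log2 scale, and the medians of the 6 arrays lay between 6.73 and 6.84. Arrays correlated over all rows with r between 0.987 and 0.993 within a group and between 0.980 and 0.988 across groups. The labels were borne out by the genes that define the columns, since Lhx3 and Lhx4 were higher in the medial samples (log2 differences 3.23 and 2.55) and Foxp1, Aldh1a2 and Lhx1 were lower (log2 differences −3.00, −4.87 and −2.58). Of 13 motor neuron genes, 10 passed, 4 in favour of medial and 6 in favour of lateral neurons, against 3.07% of all rows. Mnx1 and Isl2 completed the 4 (1.42 and 1.57), and Ret, Prph and Isl1 the 6 (−1.24, −1.66 and −0.64). The cholinergic genes Chat, Slc5a7 and Slc18a3 did not pass (0.29, −0.15 and 0.14). Their groups did not overlap, with Chat and Slc18a3 higher and Slc5a7 lower in the medial samples, a separation seen in 19.3% of all rows. The table has no detection calls. As a guide to background, 18 genes of tissues that the sort should not contain, such as liver, pancreas, muscle, skin and testis, averaged between 3.50 and 7.44 over the 6 arrays. The top of this range is set by 1 gene, the muscle actin gene Acta1. The next, Prm2, averaged 6.71 in medial and 6.91 in lateral samples. The median level over all rows, 6.78, lies inside the range, so the guide is coarse. By its level alone, a row within that range cannot be told from background here. Rows differ in how strongly their probes respond, so no order of abundance between genes is drawn from these levels. Precision is limited by having 3 arrays per group. The titles call the replicates biological, but nothing in the labels ties them to separate litters. A p-value here therefore sets the difference between the groups only against the spread among these samples.

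Il6st was the member that passed the test between the columns. Of the 7 measured members, 1 was higher in medial neurons at an adjusted p of 0.05 and 0 were lower (limma, Benjamini-Hochberg over all 23332 rows). Over all rows, 3.07% passed in either direction, 1.13% as higher and 1.94% as lower. The members were chosen with earlier results of these data known, so the shares of all rows are given as a scale only. An unadjusted p under 0.05 was reached by 2 members, against 13.4% of all rows. In 2 members, Il6st and Lifr, every medial value exceeded every lateral value, and in 0 the reverse held. Such separation was seen in 19.3% of all rows, 10.2% with medial higher and 9.15% with medial lower. The median log2 difference of the 7 members was −0.014, against 0.017 for all rows.

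**Figure D1:**
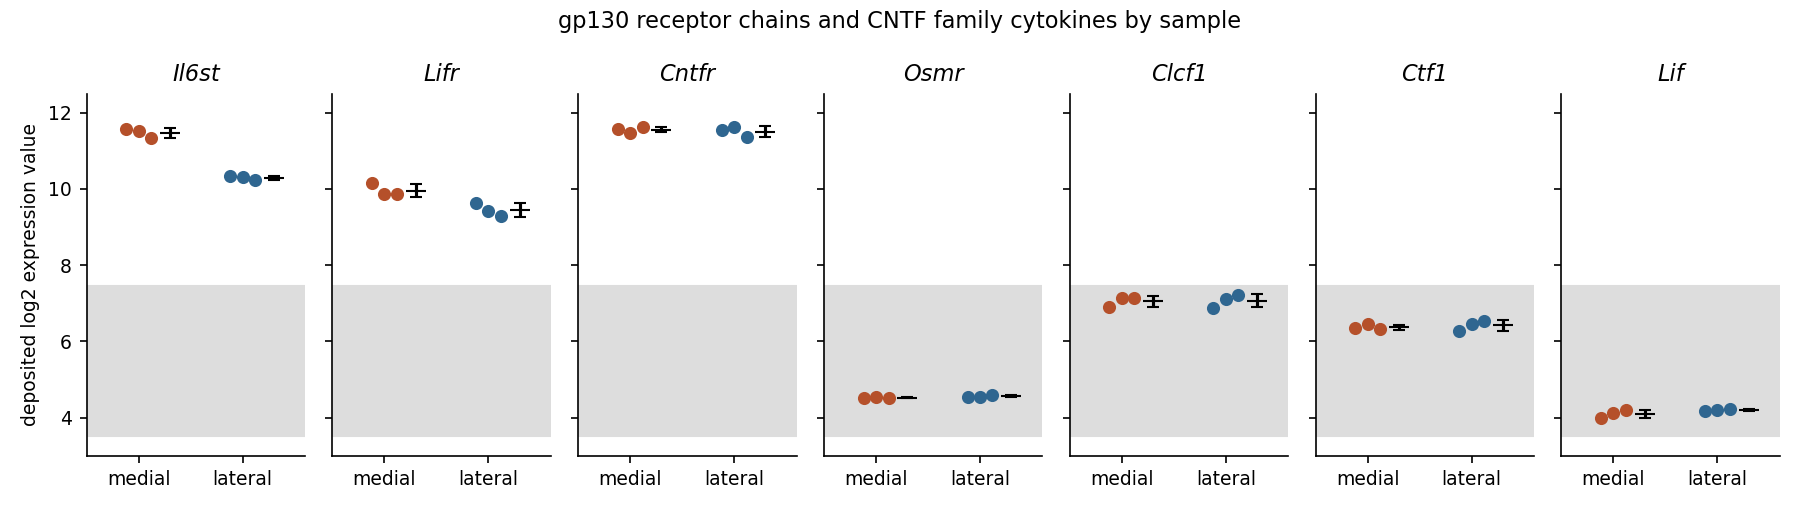
Deposited log2 expression values of the 7 measured members in each sample, with medial samples left and lateral samples right in each panel. Points are samples, bars are the mean ± SD of 3 samples, and the grey band is the range of the mean levels of 18 genes of other tissues (3.50 to 7.44). Il6st and Lifr have medial values above every lateral value, Cntfr overlaps, and Osmr, Clcf1, Ctf1 and Lif lie inside the band.

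The signalling chain gp130 was more abundant at the RNA level in medial motor neurons. Il6st had log2 values of 11.57, 11.52 and 11.32 in medial samples 1, 2 and 3, against 10.34, 10.30 and 10.23 in lateral samples 1, 2 and 3. Every medial value lay above every lateral value, and the gap between the groups was several times the spread within either. The means were 11.47 ± 0.13 (medial) and 10.29 ± 0.06 (lateral) on the log2 scale (SD, n = 3 each), a difference of 1.18 ± 0.09 (SE, 95% confidence interval 0.96 to 1.41), or 2.27-fold (limma adjusted p = 0.00193). In bulk samples such as these, fewer cells that use a gene and less RNA per cell cannot be told apart. By size, Il6st ranked 78 among the 264 rows that were higher in the medial samples. Its call held without any single sample, with log2 differences from 1.13 to 1.26.

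The nearest genes beside Il6st on the chromosome that had a row of their own did not pass. These were 2 protein-coding genes on each side, Map3k1, Ankrd55, Ddx4 and Slc38a9. Genes without a row of their own, such as those that share a row with other symbols, were passed over. Their log2 differences were −0.56 ± 0.11, −0.17 ± 0.11, −0.03 ± 0.08 and 0.29 ± 0.10 (SE, 3 samples per group; limma adjusted p from 0.0655 to 0.922). Map3k1, which encodes a kinase of the MAPK cascades, lay on the lateral side, with medial and lateral values that did not overlap. The values of Slc38a9 did not overlap either, with the medial samples higher, as for Il6st. Such separation was seen in 19.3% of all rows.

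The sequence before the start of Il6st is shown because it is the promoter of the member that passed, and those of Lifr are set beside it because Lifr leaned the same way. Sequences are RefSeq promoter windows of build GRCm38.p6, restricted to the 250 bases before the annotated start and read 5′ to 3′ on the plus strand, the coding strand of both genes. Capitals mark each match to TTNNNNNAA, the loose spacing of a STAT binding site, which reads the same on both strands.
Il6st, chr13:112463820-112464069: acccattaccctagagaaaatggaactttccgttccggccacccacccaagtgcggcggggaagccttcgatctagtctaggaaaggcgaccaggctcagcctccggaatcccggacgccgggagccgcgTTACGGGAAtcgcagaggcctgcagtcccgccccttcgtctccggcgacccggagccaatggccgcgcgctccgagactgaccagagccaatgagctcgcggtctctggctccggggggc
Lifr, upstream start, chr15:7129322-7129571: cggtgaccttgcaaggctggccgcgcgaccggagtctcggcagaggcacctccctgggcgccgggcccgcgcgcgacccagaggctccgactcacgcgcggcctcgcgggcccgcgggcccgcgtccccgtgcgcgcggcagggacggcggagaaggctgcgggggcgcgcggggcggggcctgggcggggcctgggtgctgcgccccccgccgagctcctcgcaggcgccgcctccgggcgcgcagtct
Lifr, downstream start, chr15:7140292-7140541: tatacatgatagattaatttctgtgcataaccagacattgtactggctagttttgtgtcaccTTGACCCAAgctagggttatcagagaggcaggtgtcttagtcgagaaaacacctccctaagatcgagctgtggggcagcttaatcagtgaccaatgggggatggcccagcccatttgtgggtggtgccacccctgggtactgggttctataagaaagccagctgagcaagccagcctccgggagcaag

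The Il6st window held 1 match to TTNNNNNAA, TTACGGGAA, which begins 120 bases before the start. Such a match is common, being present in 55.2% of the 32851 promoter windows of the same length. The stricter form TTCNNNGAA, present in 7.02% of windows, had 0 matches in the Il6st window and 0 in both Lifr windows. The Il6st window also held 2 matches to CCAAT on either strand, where 33.8% of windows hold at least 1, and 1 match to GGGCGG on either strand (32.7% of windows). The homeodomain core TAATTA, present in 4.84% of windows, had 0 matches in the Il6st window and in both Lifr windows. The upstream Lifr window had 0 matches to TTNNNNNAA and 2 to GGGCGG, and the downstream window had 1 match to each of TTNNNNNAA and CCAAT. A match describes the letters in the window and does not show that a factor binds there.

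Lifr, which encodes the chain that pairs with gp130, leaned the same way without passing. Its log2 values were 10.14, 9.85 and 9.86 in medial samples 1, 2 and 3, against 9.64, 9.41 and 9.30 in lateral samples 1, 2 and 3. The lowest medial value lay above the highest lateral value by a margin smaller than the range within either group. The log2 difference was 0.50 ± 0.13 (SE, 3 samples per group, 95% confidence interval 0.20 to 0.81; limma unadjusted p = 0.00652, adjusted p = 0.128). It passed when rows not listed in the probe table were left out (adjusted p = 0.0482) and with 1 row per gene (adjusted p = 0.0434), and its adjusted p ranged up to 0.132 over the alternatives that kept all arrays. The nearest protein-coding genes with a row of their own, Rictor and Osmr on one side and Egflam and Gdnf on the other, did not pass. Their log2 differences were 0.11 ± 0.10, −0.03 ± 0.07, −0.13 ± 0.07 and −0.08 ± 0.10 (SE, limma adjusted p from 0.538 to 0.913). Of these, the values of Egflam did not overlap between the groups and were lower in the medial samples.

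Cntfr, the chain that gives the complex its affinity for CNTF and CLCF1, had high values in every sample with no detectable difference. Its log2 values were 11.56, 11.48 and 11.63 in medial samples 1, 2 and 3, against 11.53, 11.62 and 11.35 in lateral samples 1, 2 and 3. The groups overlapped, and the highest values of the medial and lateral samples were nearly equal. The log2 difference was 0.05 ± 0.10 (SE, 3 samples per group, 95% confidence interval −0.18 to 0.29, limma adjusted p = 0.889). The interval leaves room for a difference in either direction, but its upper end lies below the lower end of that of Il6st.

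Osmr, the receptor chain for oncostatin M, was in the range of genes of other tissues in all samples. Its log2 values were 4.52, 4.54 and 4.51 in medial samples 1, 2 and 3, against 4.53, 4.55 and 4.58 in lateral samples 1, 2 and 3. The groups overlapped and the log2 difference was −0.03 ± 0.07 (SE, limma adjusted p = 0.913).

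Since the CNTF complex needs all 3 chains, the rows of Il6st, Lifr and Cntfr were also set against each other within each array. The offset between 2 rows depends on their probes and has no meaning by itself, so the comparison concerns its change between columns. The Il6st value minus the Cntfr value was 0.012, 0.047 and −0.30 in medial samples 1, 2 and 3, against −1.20, −1.32 and −1.12 in lateral samples 1, 2 and 3. The Il6st value minus the Lifr value was 1.43, 1.67 and 1.47 in the medial samples, against 0.70, 0.90 and 0.93 in the lateral samples. The Lifr value minus the Cntfr value was −1.42, −1.62 and −1.77 in the medial samples, against −1.90, −2.22 and −2.05 in the lateral samples. In each of the 3 pairs the groups did not overlap, but every pair holds Il6st or Lifr, whose own values were already separated. Single rows are separated in 19.3% of cases, and the share among pairs of rows was not computed. The balance of Il6st to Cntfr differed by 1.13 on the log2 scale, that of Il6st to Lifr by 0.68 and that of Lifr to Cntfr by 0.45. Each had a two-sided exact permutation p of 0.10 (adjusted over the 3 pairs, 0.10), which is the smallest that 3 samples against 3 allow, so none could pass.

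**Figure D2:**
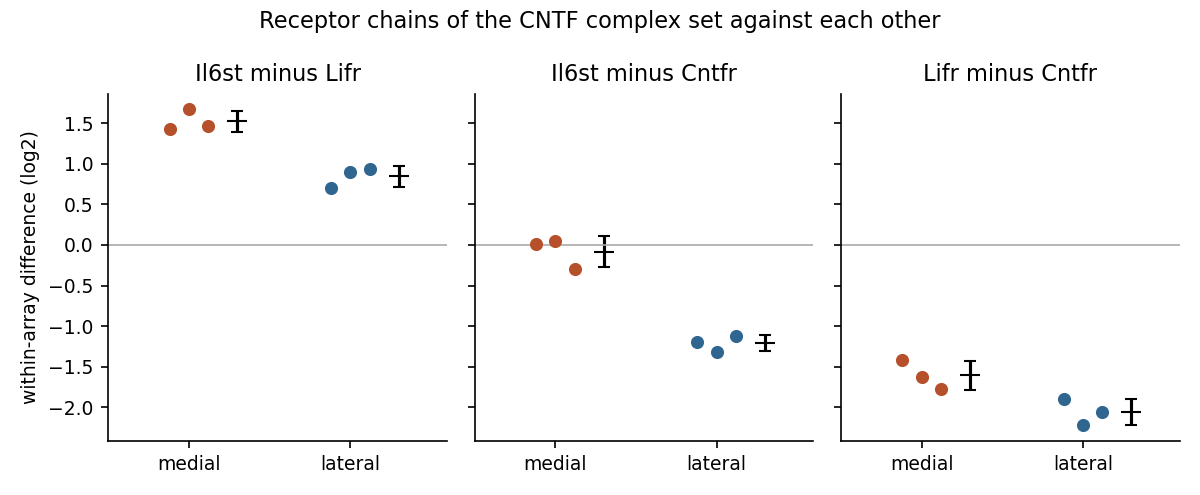
Within-array differences between the log2 values of 2 receptor rows, for 3 pairs of receptor chains, with medial samples left and lateral samples right. Points are samples and bars are the mean ± SD of 3 samples. In each pair the medial values lie above the lateral values, by 0.68, 1.13 and 0.45 on average from left to right.

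The measured cytokines of the family stayed within the range of genes of other tissues in both columns, and none passed. Clcf1, a ligand of the CNTF receptor, had log2 values of 6.89, 7.15 and 7.13 in medial samples 1, 2 and 3, against 6.88, 7.12 and 7.21 in lateral samples 1, 2 and 3. The groups overlapped almost fully. Ctf1, which encodes cardiotrophin 1, had values of 6.34, 6.45 and 6.32 in the medial samples, against 6.27, 6.46 and 6.52 in the lateral samples, again with overlap. Lif, which encodes leukemia inhibitory factor, had values of 3.99, 4.13 and 4.19 in the medial samples, against 4.17, 4.20 and 4.21 in the lateral samples. The medial values of Lif reached into the lateral range. The log2 differences of Clcf1, Ctf1 and Lif were −0.01 ± 0.12, −0.05 ± 0.09 and −0.09 ± 0.08 (SE, 3 samples per group; limma adjusted p = 0.983, 0.900 and 0.735). Clcf1 averaged 7.06 in medial and 7.07 in lateral samples, and of the genes of other tissues only Acta1 averaged higher. With levels that cannot be told from background, the 3 cytokine rows do not show whether the RNA was present, and a difference between the columns could go undetected.

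By root mean square difference of log2 profiles centred on each gene's mean, over the 6 arrays and 14860 genes, the 5 genes nearest to Il6st were Dach1, Edil3, Gpr22, Gstm7 and Epha5, at 0.071, 0.084, 0.084, 0.093 and 0.096. Dach1 encodes a transcriptional cofactor, Edil3 a secreted protein that binds integrins, Gpr22 an orphan receptor, Gstm7 a glutathione transferase and Epha5 a receptor for ephrin-A ligands. Dach1 had log2 values of 11.60, 11.50 and 11.49 in medial samples 1, 2 and 3, against 10.49, 10.33 and 10.26 in lateral samples 1, 2 and 3. All 5 were higher in the medial samples, by 1.08 to 1.21 on the log2 scale (limma adjusted p from 0.00115 to 0.00288), as the choice by likeness to Il6st requires. Gstm7 belongs to a family of close copies whose probes may share signal.

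**Figure D3:**
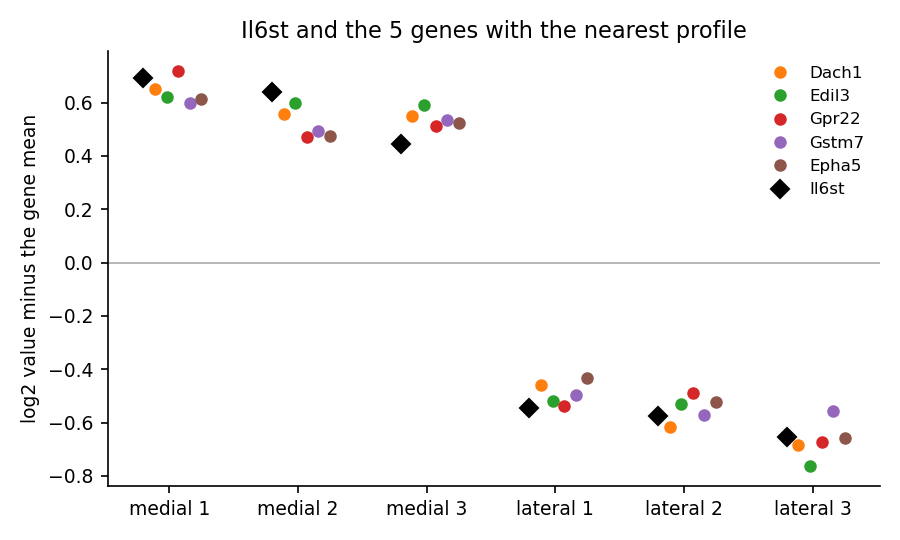
Log2 values minus each gene's mean over the 6 arrays for Il6st (black diamonds) and the 5 genes with the nearest profile (coloured circles), by sample, medial left and lateral right. All 6 genes lie above their mean in the 3 medial samples and below it in the 3 lateral samples.

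The wider pathway was described from lists drawn up from general knowledge, with earlier results of these data known. The ligand list includes the 3 measured cytokines of the set and the receptor list its 4 receptor chains. Il6st is also in the list of STAT3 targets. Counts for these lists are therefore not separate from those of the members. Of all rows, 1.13% were called higher, 1.94% were called lower and 13.4% had an unadjusted p under 0.05. Of 8 measured genes for ligands that use gp130, 0 were called in either direction in limma, and 0 had an unadjusted p under 0.05. Their median log2 difference was −0.053, against 0.017 for all rows, and all 8 averaged below the highest gene of the other tissues. Besides the members, Ctf2, a cytokine gene next to Ctf1, differed by −0.22 ± 0.15, Il11 by 0.09 ± 0.08 and Il6 by −0.06 ± 0.08 (SE, limma adjusted p from 0.631 to 0.830). Osm, the gene of oncostatin M, was not analysed here.

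Of 8 measured genes on the receptor list, 1 was higher, Il6st, and 0 were lower in limma. The list is wider than the receptors that use gp130, since it also holds Sorl1, Csf3r and Lepr. An unadjusted p under 0.05 was reached by 2 (25%), Il6st and Lifr, both in the higher direction, against 13.4% of all rows. Both are members already described above, and no other receptor on the list reached it. Sorl1, which encodes a sorting receptor known to bind the CNTF receptor complex, had the next smallest p after Lifr. Its values were 10.81, 10.67 and 10.87 in medial samples 1, 2 and 3, against 11.08, 10.98 and 10.90 in lateral samples 1, 2 and 3. The groups were separated by a narrow margin, and the log2 difference of −0.20 ± 0.09 did not pass (SE, limma adjusted p = 0.415). Csf3r and Lepr, receptors of blood cell and metabolic cytokines, were in the range of genes of other tissues and differed by 0.09 ± 0.09 and −0.06 ± 0.07 (SE; limma adjusted p = 0.760 and 0.823).

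Of 9 measured JAK and STAT genes, 0 were called in either direction in limma. An unadjusted p under 0.05 was reached by 1 (11.1%), Stat3, against 13.4% of all rows. Stat3, the main transcription factor of the pathway, leaned towards the lateral samples. Its values were 10.26, 10.13 and 10.28 in medial samples 1, 2 and 3, against 10.70, 10.53 and 10.54 in lateral samples 1, 2 and 3. Every medial value lay below every lateral value, as in 9.15% of all rows. The log2 difference was −0.36 ± 0.09 (SE, 3 samples per group, limma adjusted p = 0.103), and it passed in 4 of the alternatives, namely with quantile normalization, without unlisted rows, with 1 row per gene and with an intensity trend. Jak1, a kinase bound to gp130, differed by −0.08 ± 0.08, and Stat4 and Stat6, which serve other cytokines and lay in the range of genes of other tissues, by 0.07 ± 0.07 and 0.07 ± 0.08 (SE; limma adjusted p from 0.781 to 0.813).

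Of 12 measured adaptor genes of the MAPK and PI3K branches, 0 were called in either direction in limma. An unadjusted p under 0.05 was reached by 1 (8.33%), Gab2, against 13.4% of all rows. Gab2, a docking protein, differed by −0.41 ± 0.12, Pik3r1 and Pik3ca, subunits of PI3 kinase, by −0.20 ± 0.08 and 0.18 ± 0.08, and the small GTPase gene Nras by 0.13 ± 0.10 (SE, limma adjusted p from 0.177 to 0.689).

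**Figure D4:**
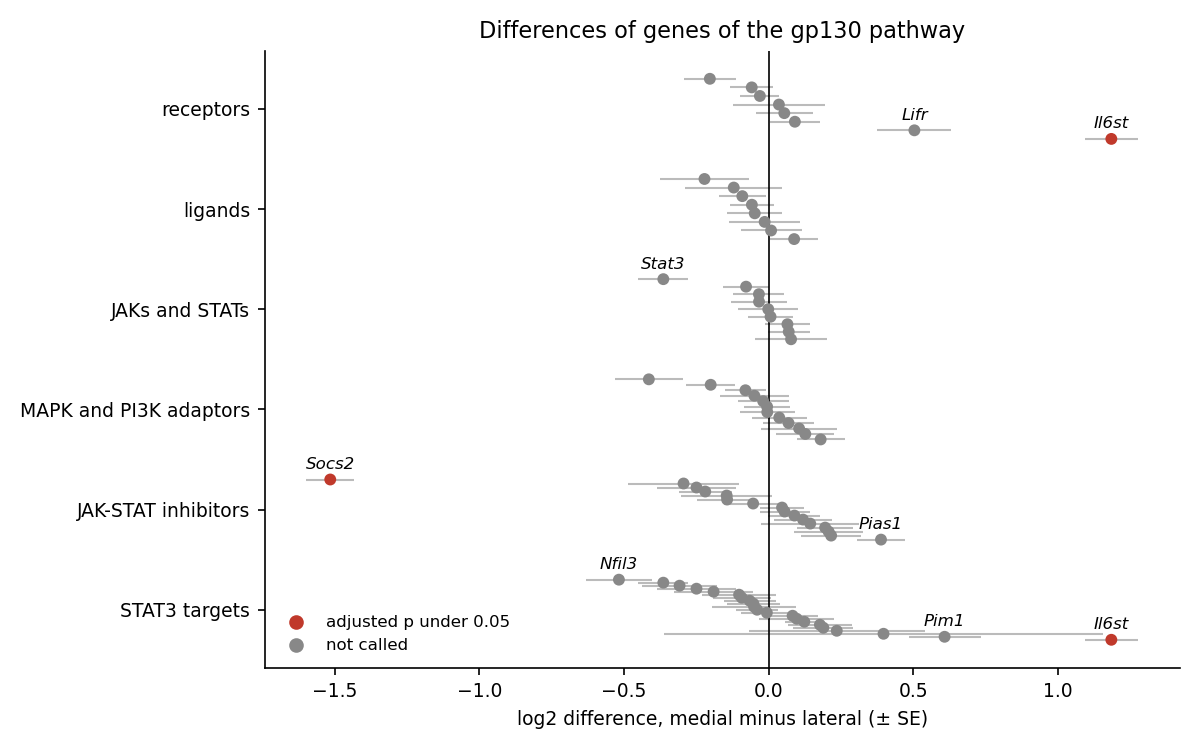
Log2 differences, medial minus lateral, for the measured genes of 6 lists of the gp130 pathway, with bars of ± SE from the limma fit of 3 against 3 samples. Red points passed an adjusted p of 0.05. Il6st, which is in the lists of receptors and of STAT3 targets, lies far right at 1.18 and Socs2 far left at −1.52, and no other gene passed.

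Among the inhibitors of the pathway, Socs2 was lower in the medial samples. Socs2 encodes a SOCS protein best known for limiting growth hormone signalling through STAT5. Its log2 values were 10.67, 10.56 and 10.69 in medial samples 1, 2 and 3, against 12.24, 12.14 and 12.07 in lateral samples 1, 2 and 3. The groups were far apart relative to their spread. The log2 difference was −1.52 ± 0.08 (SE, 3 samples per group), a level 2.86-fold lower in the medial samples (limma adjusted p = 6.75e-04), and the call held without any single sample. The 4 nearest protein-coding genes with a row of their own, Plxnc1, Cradd, Ube2n and Nudt4, did not pass, with log2 differences from −0.35 to 0.21. Of these, Ube2n and Nudt4 had groups that did not overlap, Ube2n with the medial samples higher and Nudt4 with them lower.

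Of 16 measured inhibitors in all, 0 were higher and 1 lower in limma, and the median log2 difference was 0.051. Pias1 in the higher and Socs2 in the lower direction had an unadjusted p under 0.05. These 2 were a smaller share of the list than the 13.4% of all rows. Socs3, the SOCS protein that binds gp130 itself and the usual sign of STAT3 activity, was named after its value was seen. It had log2 values of 7.36, 7.12 and 6.94 in medial samples 1, 2 and 3, against 7.36, 7.25 and 7.55 in lateral samples 1, 2 and 3. The groups overlapped, the difference was −0.25 ± 0.14 (SE, limma adjusted p = 0.518), and the levels were in the range of genes of other tissues. Pias1, an inhibitor of activated STAT proteins, had values of 10.88, 10.74 and 10.84 in the medial samples, against 10.47, 10.49 and 10.34 in the lateral samples. Its groups did not overlap, and its difference of 0.39 ± 0.08 missed the threshold (SE, limma adjusted p = 0.0737), which it passed with each array centred on its median, without unlisted rows, with 1 row per gene and with an intensity trend. Pias3, Socs4 and Pias4 differed by −0.22 ± 0.09, 0.22 ± 0.10 and 0.20 ± 0.10 and did not pass (SE, limma adjusted p from 0.379 to 0.464). The groups of Pias3 and Pias4 did not overlap either, with the medial samples lower for Pias3 and higher for Pias4. Separation held for 2 inhibitors with the medial samples higher and 2 with them lower, against 19.3% of all rows in either direction.

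Of 21 measured genes known to be induced through STAT3, 1 was higher, Il6st itself, and 0 were lower in limma, with a median log2 difference of −0.040. An unadjusted p under 0.05 was reached by 2 in the higher direction, Il6st and Pim1, and by 2 in the lower direction, Nfil3 and Stat3. Together they were 19% of the list, against 13.4% of all rows, with Il6st and Stat3 counted here again. Pim1, a kinase gene induced by cytokines, had values of 8.32, 8.40 and 8.65 in medial samples 1, 2 and 3, against 7.97, 7.68 and 7.90 in lateral samples 1, 2 and 3. Nfil3, a transcription factor gene, had values of 7.87, 7.56 and 7.92 in the medial samples, against 8.35, 8.34 and 8.21 in the lateral samples. The groups of both genes were fully separated, in opposite directions, and such separation was seen in 19.3% of all rows. The log2 differences of Pim1 and Nfil3 were 0.61 ± 0.12 and −0.52 ± 0.12 (SE, 3 samples per group; limma adjusted p = 0.0646 and 0.0863). Pim1 passed with quantile normalization, without dim rows, without unlisted rows, with 1 row per gene and with array weights, and Nfil3 with quantile normalization, without unlisted rows and with 1 row per gene. Myc, a growth regulator, differed by −0.31 ± 0.13 (SE, limma adjusted p = 0.381).

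**Figure D5:**
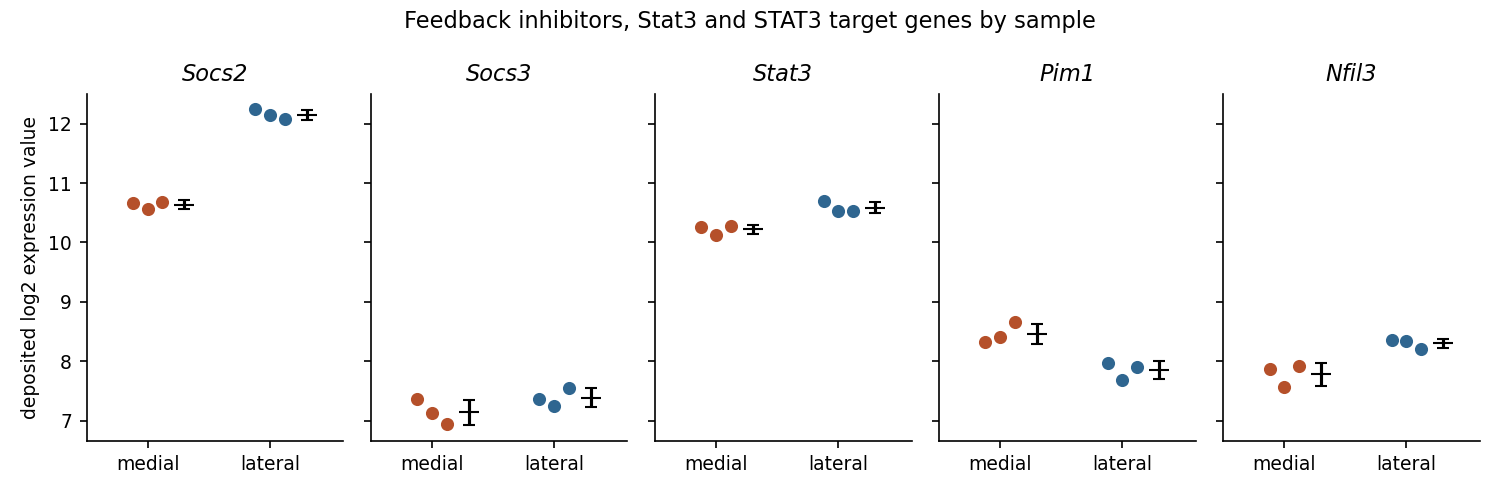
Deposited log2 expression values of the feedback inhibitor genes Socs2 and Socs3, of Stat3 and of the STAT3 target genes Pim1 and Nfil3 in each sample, medial left and lateral right. Points are samples and bars are the mean ± SD of 3 samples. Socs2 has the widest gap, with medial values near 10.6 and lateral values near 12.2, while Socs3 overlaps.

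Fos, an immediate early gene on the same list and named after its values were seen, varied more between replicates than between columns. It had values of 9.62, 7.05 and 6.90 in medial samples 1, 2 and 3, against 8.20, 7.00 and 7.17 in lateral samples 1, 2 and 3. Replicate 1 was thus the highest in both groups. Without replicate 1 of both groups, an alternative chosen after seeing the data, the log2 difference of Il6st was 1.16 ± 0.12 (SE, 2 samples per group, limma adjusted p = 0.0414) and 1 of the 7 members passed, as with all samples.

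Genes of other cells that could accompany sorted motor neurons were examined because receptors of this family are also made outside neurons. Of 9 endothelial markers, 0 averaged above the highest gene of the other tissues, and the same held for 9 myeloid and red cell markers. Of 12 mesenchymal and 8 sensory and Schwann cell markers, 1 and 3 did so, and 2 of those 3 were the neurotrophin receptor genes Ntrk2 and Ntrk3. Of 12 progenitor, 6 floor plate and 12 interneuron markers, 3, 2 and 2 lay above it. Summed on the linear scale, endothelial markers reached 336 to 351 in medial and 315 to 349 in lateral samples, and mesenchymal markers 1119 to 1286 and 1101 to 1216. Sums for sensory and Schwann cell markers were 3049 to 3322 in medial and 2552 to 2796 in lateral samples. Ntrk2 and Ntrk3 had the highest levels of that list and differed by 0.30 and 0.36 without passing. The rest of that list differed by −0.25 to 0.09. Sums for floor plate markers were 1168 to 1260 in medial and 2295 to 2431 in lateral samples. In that list Spon1 had the highest level, at 9.32 in medial and 10.62 in lateral samples. Apart from Spon1 and Shh, floor plate markers differed by −0.16 to 0.05 and did not pass. Progenitor markers summed to 8929 to 9419 in medial and 8954 to 9567 in lateral samples, of which Vim, an intermediate filament gene, gave at least 83.2%. Without Vim the other 11 summed to 1426 to 1523 in medial and 1182 to 1568 in lateral samples. Among them Fabp7 had values of 8.69, 8.74 and 8.72 in medial samples 1, 2 and 3, against 7.87, 9.03 and 7.66 in lateral samples 1, 2 and 3. Fabp7 did not pass (limma adjusted p = 0.603), but did without lateral replicate 2 (0.0183). The median log2 difference of the 12 progenitor markers was −0.0076. Sums were, for interneuron markers, 1106 to 1203 in medial and 1041 to 1337 in lateral samples, and for myeloid and red cell markers 451 to 557 and 540 to 546. Some markers moved with the columns. Sox2, Slc17a6, Dcn and Cldn5 were higher in the medial samples (log2 differences 0.63, 1.02, 1.31 and 0.45), and the floor plate list's Spon1 and Shh were lower (−1.30 and −1.03). The calls of Sox2, Dcn and Cldn5 ended when any single sample was left out (limma adjusted p up to 0.144), and that of Slc17a6 without medial replicate 3 (0.0516). In the medial samples, where they were higher, these 4 genes averaged 6.31, 6.50, 6.59 and 6.05, within the range of genes of other tissues. Their part in the difference at Il6st was not tested.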

How the data were processed

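Total RNA of sorted HB9::GFP motor neurons was biotinylated with a whole-transcript kit and hybridised to 1 array per sample, per the labels' protocols (3 medial, 3 lateral). The authors deposited 1 table of processed values, taken to be log2 from their range of 2.49 to 14.1. Summarization, background correction and normalization are not given in the sources used here, so scale and centring rest on the values alone. The build named is mm9, per the submitters' processing notes.

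Groups and replicate numbers came from the sample titles. Differences (medial minus lateral) were fitted in R 4.3.3 by limma 3.58.1, using lmFit and eBayes with a two-sided test, no block and no filter, with Benjamini-Hochberg adjustment over 23332 rows and a threshold of 0.05. The series design also names the program PowerExpress, which was not run. Symbols came from the platform's probe table, where 14996 rows had 1 symbol, 1019 several and 7317 were not listed, and 14941 were updated through RefSeq. A gene with several rows was represented by the row with the highest mean. The fit was tested on simulated data first.

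The members, gene lists and promoter motifs were chosen with earlier results of these data known. Named genes were the members, list genes that passed, up to 4 others of each pathway list and up to 3 of each marker list with the smallest p, and the 5 genes most like a member that passed. Of the marker lists, the text names those that passed, with Ntrk2, Ntrk3 and, chosen after their values were seen, Vim and Fabp7. The others are given as counts, sums and ranges.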

Additional observations from a re-analysis of the deposited data

How the results depend on the processing

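The call of Il6st kept its direction and passed under all alternatives run, from 1.14 to 1.19 on the log2 scale with all arrays and from 1.13 to 1.26 with a sample left out. The members counted as higher became 2 without unlisted rows and 2 with 1 row per gene, because Lifr then passed (log2 difference 0.50 in both). Signs turned in uncalled members when a sample was left out. Cntfr ranged from −0.022 to 0.11, with the negative value −0.022 without lateral replicate 3. Clcf1 ranged from −0.11 to 0.070, and turned positive at 0.070 (medial replicate 1 left out), 0.012 (lateral replicate 2) and 0.057 (lateral replicate 3). Ctf1 ranged from −0.12 to 0.0056, the last without lateral replicate 3. Of 23332 rows, 264 were higher and 453 lower. At an adjusted p of 0.10 the higher rows were 404, and at 0.01 the counts were 116 higher and 161 lower. Leaving out a sample gave 126 to 224 higher and 200 to 348 lower rows, and leaving out replicate 1 of both groups, chosen after seeing the data, gave 77 and 124. With the replicate number as a block, 294 rows were lower, Il6st passed (adjusted p = 0.0133) and no member's call changed. Deviations from the group mean correlated between samples with the same number at r = 0.35, 0.067 and 0.015. The highest r of the 9 combinations was that of the samples numbered 1. Deviations from a mean of 3 samples are tied to each other, so these r cannot decide whether the numbers mark pairs. The labels do not say what a number marks, so the main fit does not treat the numbers as pairs. Each member had a single row, so no other row could stand for it. Osmr and Lif fell among the dim rows and have no value when those are left out. Signal near background limits what can be said of Osmr, Clcf1, Ctf1 and Lif.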

Other observations

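Receptors of other cytokine families that also act through JAKs were examined after the values of Socs2 had been seen. Of 23 measured genes for such receptors without gp130, 0 were called in either direction in limma. An unadjusted p under 0.05 was reached by 3 (13.0%), near the 13.4% of all rows, with a median log2 difference of −0.035. The 3 are given as values only. The interleukin 4 receptor gene Il4ra and its partner Il13ra1 stood at 7.02 and 4.47 in medial and 7.38 and 4.84 in lateral samples, with log2 differences of −0.36 ± 0.09 and −0.37 ± 0.10 (SE, limma adjusted p = 0.125 and 0.169). Ghr, the growth hormone receptor gene, whose signalling SOCS2 is known to limit, stood at 5.37 in medial and 4.91 in lateral samples and differed by 0.45 ± 0.14 (SE, limma adjusted p = 0.211). All 3 lay in the range of genes of other tissues. Of the 23 genes, 5 averaged above that range, and among them the interferon gamma receptor gene Ifngr2 stood at 11.32 in medial and 11.49 in lateral samples (log2 difference −0.17 ± 0.08, SE, limma adjusted p = 0.423).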
